A study of Homo sapiens with 18 samples.

Results

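Lysosomal transcripts were followed in HMC3 cells, an immortalized human cell line used as a model of microglia, along a dose series of oxidized low-density lipoprotein (oxLDL). The 52 genes considered here encode glycan hydrolases and sulfatases, lipid hydrolases and their activators, cathepsins and other proteases, lysosomal membrane proteins, and subunits of the vacuolar proton pump (V-ATPase). They were chosen by symbol, with earlier results of these data known. The deposited table of 13992 genes held 50 of the 52. GAA and NEU1 were not analysed here. All 50 passed the filter on low values, so they are 50 of the 12127 genes tested. The oxLDL doses were 1, 2.5, 10, 50 and 100 µg/ml for 24 h, and the untreated libraries are those at 0 µg/ml. All cells carry the wild-type genotype and were grown in MEM with serum. Each dose has 3 libraries, and the labels give all 18 the same batch value. Whether libraries of 1 dose are separate cultures is not stated, and the p-values may therefore reflect technical spread alone.

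Lysosomes degrade material delivered by endocytosis and autophagy. Acid hydrolases are made in the endoplasmic reticulum, carried to lysosomes mostly by mannose 6-phosphate receptors, and work best at the low pH that the V-ATPase maintains. The pump is built of a membrane sector, V0, through which protons pass, and a cytosolic sector, V1, which hydrolyses ATP. Lipoproteins taken up by macrophages and microglia reach this compartment, where the acid lipase LIPA frees cholesterol from cholesteryl esters. Many lysosomal genes carry an E-box in their promoters that is bound by TFEB and its relatives TFE3 and MITF, whose entry into the nucleus is controlled by the kinase complex mTORC1.

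Expression is given in FPKM, which divides the reads of a gene by its length and by the size of its library. Depth, recovered from the steps of these values, was between 13919066 and 37382244 reads per library. Replicate 3 at 100 µg/ml was the shallowest library and lay farthest out on the first principal component, and the counts at 100 µg/ml are also given without it. Of 20 microglia and macrophage markers, 3 were in the table (CD68, CD14 and LAPTM5), and P2RY12, TMEM119, CX3CR1 and the others were not analysed here. CD68 and LAPTM5 are also counted below among the other lysosomal membrane proteins. The summed FPKM of these 3 markers was 15.8 to 16.6 at 100 µg/ml, against 13.3 to 14.1 at 0 µg/ml, and CD14 fell to 0.630 ± 0.23 FPKM at 100 µg/ml, against 1.08 ± 0.098 at 0 µg/ml (SD, n = 3 each, limma adjusted p = 0.024). Of 12 fibroblast and pericyte markers, 8 were in the table, with summed FPKM of 526 to 594 at 100 µg/ml, against 715 to 781 at 0 µg/ml. In limma 3 of the 7 tested fell (THY1, COL1A1 and PDGFRB), against 7.51% of all genes tested. Of 5 astrocyte markers 2 were in the table and 0 were called, with summed FPKM of 1.76 to 2.02 at 100 µg/ml, against 1.87 to 2.13 at 0 µg/ml. Of 5 neuron markers 3 were in the table, with summed FPKM of 27.1 to 29.4 at 100 µg/ml, against 32.1 to 33.3 at 0 µg/ml. TUBB3 was the 1 of the 2 tested that fell in limma (log2 fold change -0.23), against 7.51% of all genes tested. The other tested neuron marker had a log2 fold change of 0.28 and was not called. The part of these marker shifts in the lysosomal results was not tested. In bulk RNA of 1 cell line, fewer cells that express a marker and less of its RNA per cell cannot be told apart.

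In untreated cells the 50 genes covered a wide range of expression. Mean FPKM at 0 µg/ml was lowest for IDUA, a glycosaminoglycan hydrolase, at 0.975, and highest for PSAP, the precursor of the saposins, at 236. The median was 21.3, against 6.41 over all genes tested. V-ATPase subunits lay between 17.7 (ATP6V1A) and 203 (ATP6V0C), with a median of 69.5, and glycan hydrolases and sulfatases between 0.975 and 32.0, with a median of 7.39. Proteases had a median of 32.0, lipid hydrolases and activators of 17.6, and membrane proteins of 14.8. These levels are per transcript length.

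At 100 µg/ml oxLDL the lysosomal genes that changed were mostly subunits of the proton pump, membrane proteins and a few hydrolases, and nearly all of them rose. Of the 50 genes, 16 were higher and 1 was lower than at 0 µg/ml in limma (Benjamini-Hochberg adjusted p under 0.05 over all genes tested), while 33 did not pass. The shares over all 12127 genes were 7.94% higher and 7.51% lower, 15.5% together. The rises were 8 of 14 V-ATPase subunits, 3 of 5 membrane proteins, 3 of 10 proteases, 1 of 6 lipid hydrolases and activators, and 1 of 15 glycan hydrolases and sulfatases. The protease CTSC was the 1 gene that fell. The median log2 fold change of the 50 genes was 0.070, against -0.0037 over all genes tested, so the typical shift was small. Without replicate 3 at 100 µg/ml, 15 genes were higher and 0 lower.

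**Figure D1:**
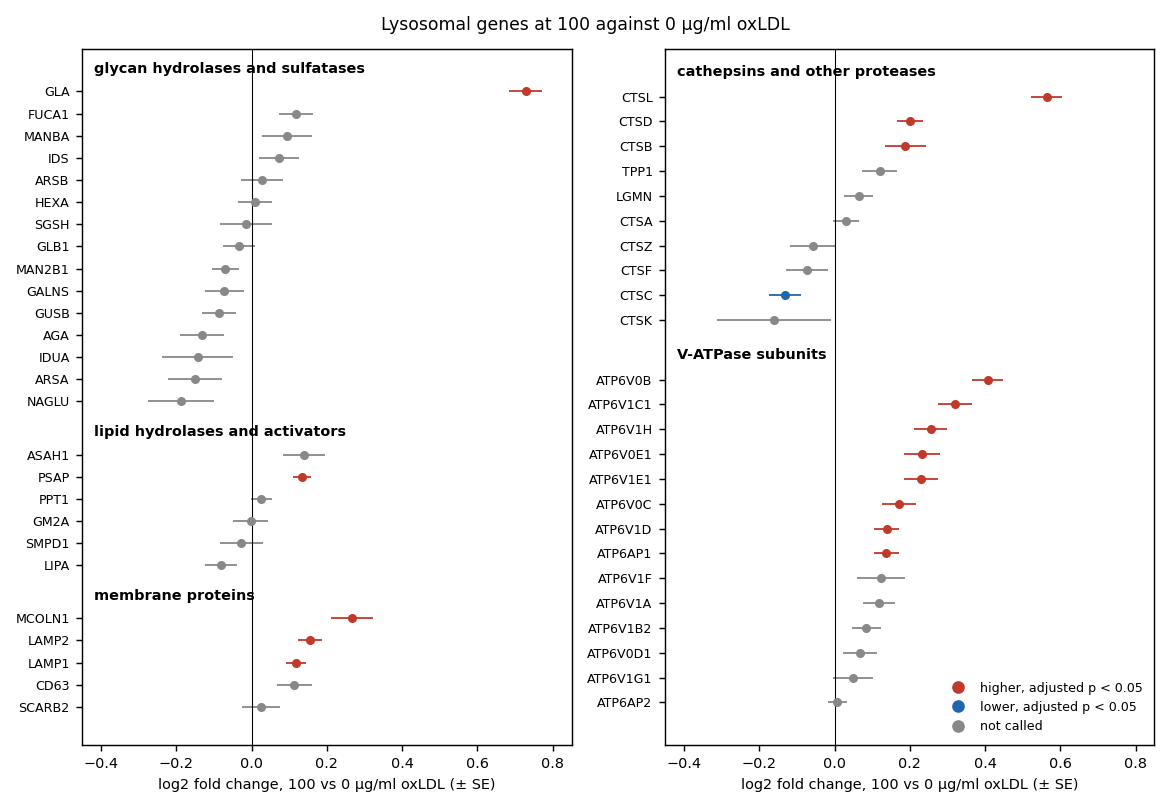
Log2 fold change of each of the 50 lysosomal genes at 100 against 0 µg/ml oxLDL, with the limma standard error as bars, grouped by subclass. Red points were called higher and blue lower at an adjusted p under 0.05. GLA (0.73) and CTSL (0.56) lie farthest to the right, and all 14 V-ATPase genes lie right of 0.

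All 3 libraries at 100 µg/ml lay above all 3 at 0 µg/ml for 20 of the 50 genes and below for 6. Over all genes tested these shares were 16.5% above and 16.9% below. The 6 below, no larger a share than over all genes tested, were ARSA, MAN2B1, AGA, LIPA, CTSC and CTSZ. Of these, CTSC alone passed the test. The summed FPKM of the 50 genes was 2470 ± 19 at 100 µg/ml, against 2250 ± 46 at 0 µg/ml (SD, n = 3 each), and V-ATPase subunits made up 1175 ± 15 at 100 µg/ml, against 1047 ± 32 at 0 µg/ml.

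The promoters of 34 of the 50 genes were searched, as given by RefSeq (build GRCh38.p14). Each ran from 250 bases before to 50 bases after the start of transcription. Both strands were searched for CACGTG, the core of the E-box that TFEB binds. They were also searched for TGACNNNGC, the core of the antioxidant response element that NRF2 binds. The promoters of the other genes were not searched, and the shares of the 50 genes and their subclasses leave them out. Among these were ATP6V0E1, ATP6V1C1, ATP6V1H, CTSB, LAMP2 and PSAP, which rose at 100 µg/ml. CACGTG was present in 10 of the 34 promoters (29.4%), against 7.26% of all 35116 promoters of the same length and 9.32% of the 13588 promoters of tested genes. It was present in 4 of the 10 promoters of genes that were higher at 100 µg/ml and in 6 of the 24 promoters of the others. By subclass these were 3 of 4 membrane proteins, 3 of 7 proteases, 3 of 9 V-ATPase subunits, 1 of 10 glycan hydrolases and sulfatases, and 0 of 4 lipid hydrolases and activators. TGACNNNGC was present in 12 of the 34 (35.3%), against 13.3% of all promoters and 14.6% of those of tested genes. For both motifs the 34 genes were counted with 1 promoter each, while the backgrounds were counted by promoter. The 13588 promoters belong to at most 12127 tested genes, so some genes count there more than once. The shares are therefore not like for like, and the difference was not tested. A match says only that these letters are in the window.

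The 4 searched promoters with an E-box core among the genes that rose are shown first, since these genes come from the subclasses described below. The promoters of GLA and CTSL, the genes with the largest rises, follow. Capitals mark CACGTG and TGACNNNGC on either strand, and each sequence runs 5′ to 3′ along the gene.
MCOLN1 (chr19:7522374-7522673, forward strand): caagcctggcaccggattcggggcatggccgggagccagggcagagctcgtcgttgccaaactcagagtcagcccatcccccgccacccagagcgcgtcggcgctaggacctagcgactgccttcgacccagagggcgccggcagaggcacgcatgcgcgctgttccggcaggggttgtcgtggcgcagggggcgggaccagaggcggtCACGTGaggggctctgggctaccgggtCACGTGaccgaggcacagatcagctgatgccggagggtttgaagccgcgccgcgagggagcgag
LAMP1 (chr13:113296989-113297288, forward strand): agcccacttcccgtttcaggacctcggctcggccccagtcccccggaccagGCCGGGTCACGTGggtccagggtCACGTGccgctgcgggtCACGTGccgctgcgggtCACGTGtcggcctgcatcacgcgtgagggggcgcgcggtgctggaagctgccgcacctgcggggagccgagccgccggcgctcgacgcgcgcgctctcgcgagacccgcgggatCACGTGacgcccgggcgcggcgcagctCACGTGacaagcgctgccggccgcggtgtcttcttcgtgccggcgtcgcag
ATP6V0B (chr1:43974710-43975009, forward strand): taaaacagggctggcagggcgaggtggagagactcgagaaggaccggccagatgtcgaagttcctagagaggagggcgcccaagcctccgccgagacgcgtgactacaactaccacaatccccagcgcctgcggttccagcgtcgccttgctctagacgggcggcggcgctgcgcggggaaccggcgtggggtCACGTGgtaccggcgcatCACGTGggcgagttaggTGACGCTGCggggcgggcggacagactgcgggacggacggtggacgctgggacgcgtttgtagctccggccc
CTSD (chr11:1763878-1764177, reverse strand): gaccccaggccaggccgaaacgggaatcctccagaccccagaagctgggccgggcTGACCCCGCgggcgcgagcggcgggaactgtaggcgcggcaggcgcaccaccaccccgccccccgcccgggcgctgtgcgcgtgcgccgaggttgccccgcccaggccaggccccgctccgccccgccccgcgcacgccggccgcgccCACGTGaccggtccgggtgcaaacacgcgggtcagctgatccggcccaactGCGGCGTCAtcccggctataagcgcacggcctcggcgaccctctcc
GLA (chrX:101407876-101408175, reverse strand): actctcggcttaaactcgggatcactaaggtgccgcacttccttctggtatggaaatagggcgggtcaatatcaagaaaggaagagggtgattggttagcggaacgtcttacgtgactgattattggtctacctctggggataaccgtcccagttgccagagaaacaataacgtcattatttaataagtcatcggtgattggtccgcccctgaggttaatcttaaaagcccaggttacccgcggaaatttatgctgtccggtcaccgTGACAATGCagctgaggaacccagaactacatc
CTSL (chr9:87725869-87726168, forward strand): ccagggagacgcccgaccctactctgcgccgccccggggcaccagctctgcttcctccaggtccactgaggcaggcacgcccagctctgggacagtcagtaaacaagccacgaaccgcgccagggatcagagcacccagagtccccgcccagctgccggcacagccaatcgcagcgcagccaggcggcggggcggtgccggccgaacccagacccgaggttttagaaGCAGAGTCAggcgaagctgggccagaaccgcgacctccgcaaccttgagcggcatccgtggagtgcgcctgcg
MCOLN1 has a pair of E-box cores in the bases just before its start, at -41 and -14, where 1 is the first transcribed base. LAMP1 has 6 cores, 4 of them close together between -192 and -137, and its first overlaps a TGACNNNGC match. ATP6V0B has 2 cores, at -57 and -39, beside a TGACNNNGC match at -22, and CTSD has 1 core at -47 with 2 matches to TGACNNNGC. GLA and CTSL hold no CACGTG in this window and 1 match each to TGACNNNGC, at 18 in GLA and at -23 in CTSL.

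Among the V-ATPase genes 8 of 14 rose at 100 µg/ml and 0 fell in limma (0 were also lower at an unadjusted p under 0.05, where 28.1% of all genes passed in either direction). The median log2 fold change was 0.14, and all 14 values were above 0, from 0.0075 to 0.41. The rises were 3 of 4 V0 subunits (ATP6V0B, ATP6V0C and ATP6V0E1), 4 of 8 V1 subunits (ATP6V1C1, ATP6V1D, ATP6V1E1 and ATP6V1H) and 1 of 2 accessory proteins (ATP6AP1). The others, ATP6V0D1, ATP6V1A, ATP6V1B2, ATP6V1F, ATP6V1G1 and ATP6AP2, did not pass.

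ATP6V0B, a subunit of the proton-conducting ring in V0 (GRCh38 chromosome 1, 43974960 to 43978295), had FPKM of 71.2, 64.0 and 72.7 at 100 µg/ml, against 51.5, 51.9 and 52.8 at 0 µg/ml. Every library at 100 µg/ml was above every library at 0 µg/ml, and replicate 2 was the lowest of the treated ones. The log2 fold change was 0.41 (SE 0.042, limma adjusted p = 5.5e-06), a difference of 33.1% between the means. ATP6V0C, the main ring subunit (chromosome 16, 2513726 to 2520218), had FPKM of 228.8, 229.9 and 226.1 at 100 µg/ml, against 201.1, 198.5 and 208.8 at 0 µg/ml. The groups did not overlap, and the log2 fold change was 0.17 (SE 0.046, limma adjusted p = 0.017). That call was lost without replicate 1 (adjusted p = 0.0583) or replicate 2 (0.0654) at 0 µg/ml and without replicate 2 at 100 µg/ml (0.0508). ATP6V0C has 4 named pseudogenes and shares 57.5% of its exon bases with an overlapping gene on the same strand, and how such reads were assigned is not stated.

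ATP6V1C1, a V1 subunit of the stalk that joins the sectors (chromosome 8), had FPKM of 24.5, 25.4 and 26.4 at 100 µg/ml, against 20.0, 21.2 and 19.6 at 0 µg/ml. All treated libraries were above the untreated ones, with a log2 fold change of 0.32 (SE 0.045, limma adjusted p = 0.00014). ATP6V1H, which regulates the coupling of V1 to V0 (chromosome 8), had FPKM of 34.9, 36.4 and 37.2 at 100 µg/ml, against 30.8, 29.9 and 30.0 at 0 µg/ml. Its groups did not overlap (log2 fold change 0.26, SE 0.044, limma adjusted p = 0.00076). ATP6V1E1, a stalk subunit (chromosome 22, 17592136 to 17628822), had FPKM of 143.2, 136.9 and 140.5 at 100 µg/ml, against 117.2, 115.5 and 126.2 at 0 µg/ml. The highest untreated library, replicate 3, was below the lowest treated one (log2 fold change 0.23, SE 0.046, limma adjusted p = 0.0025). ATP6AP1, an accessory protein that helps assemble the pump (chromosome X, 154428677 to 154436516), had FPKM of 77.5, 75.8 and 75.7 at 100 µg/ml, against 68.4, 68.8 and 70.8 at 0 µg/ml. The groups did not overlap, and the log2 fold change was 0.14 (SE 0.032, limma adjusted p = 0.0073).

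The remaining calls were ATP6V0E1 (log2 fold change 0.23) and ATP6V1D (0.14, lost without replicate 3 at 100 µg/ml, limma adjusted p = 0.053). ATP6V0E1 has 4 named pseudogenes, and ATP6V1D overlaps EIF2S1 on the opposite strand over 6.3% of its exon bases. How such reads were assigned is not stated. The catalytic subunit ATP6V1A had 19.3 ± 0.68 FPKM at 100 µg/ml, against 17.7 ± 0.042 at 0 µg/ml (SD, n = 3 each), with a log2 fold change of 0.12 and an adjusted p of 0.0745 in limma. The other accessory protein, ATP6AP2, had 72.7 ± 0.87 FPKM at 100 µg/ml, against 72.3 ± 0.57 at 0 µg/ml, a log2 fold change of 0.0075 with an SE of 0.025.

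**Figure D2:**
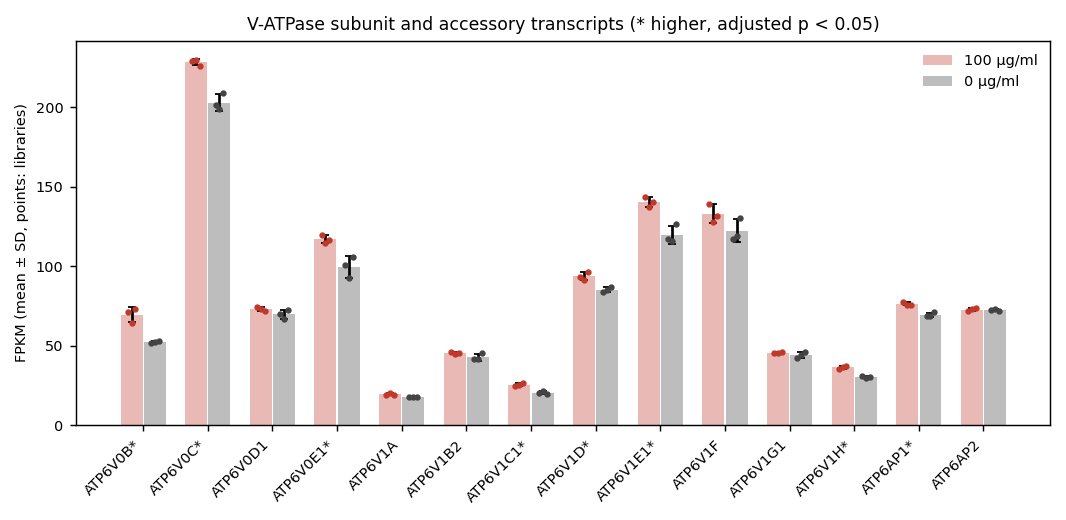
FPKM of the 14 V-ATPase genes at 100 µg/ml (red, left bar of each pair) and 0 µg/ml oxLDL (grey, right bar), as mean ± SD with each of 3 libraries as a point. Stars mark the 8 genes called higher. ATP6V0C is the most abundant, at 228 FPKM at 100 µg/ml, against 203 at 0 µg/ml.

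From 15 other tested V-ATPase subunits and assembly factors, outside the 52 genes, 1 rose and 1 fell at 100 µg/ml. This was close to the shares over all genes tested, 7.94% higher and 7.51% lower. The median log2 fold change was 0.041. ATP6V0A4, a tissue-restricted isoform of the largest V0 subunit, had 1.27 ± 0.25 FPKM at 100 µg/ml, against 0.727 ± 0.079 at 0 µg/ml (SD, n = 3 each), a log2 fold change of 0.52 (limma adjusted p = 0.0082). It rests on 28 to 120 reads per library. ROGDI, a protein that belongs to a V-ATPase assembly complex, fell by 0.29 on the log2 scale (limma adjusted p = 0.029).

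Of the 5 membrane proteins, LAMP1, LAMP2 and MCOLN1 rose at 100 µg/ml and 0 fell in limma, with 0 lower at an unadjusted p under 0.05. The median log2 fold change was 0.12. MCOLN1, a calcium channel of the lysosomal membrane (chromosome 19, 7522624 to 7534009), had FPKM of 16.2, 16.8 and 17.5 at 100 µg/ml, against 13.4, 13.6 and 14.7 at 0 µg/ml. The treated libraries were all higher, with a log2 fold change of 0.27 (SE 0.056, limma adjusted p = 0.0033). LAMP2, a heavily glycosylated protein of the lysosomal membrane with a splice form that acts in chaperone-mediated autophagy (chromosome X, 120426148 to 120469349), had FPKM of 15.8, 16.5 and 16.0 at 100 µg/ml, against 14.2, 14.6 and 14.4 at 0 µg/ml. The groups did not overlap (log2 fold change 0.15, SE 0.031, limma adjusted p = 0.0028). LAMP1, the other major glycoprotein of this membrane (chromosome 13, 113297239 to 113323672), had FPKM of 88.2, 85.4 and 87.2 at 100 µg/ml, against 80.5, 79.3 and 80.3 at 0 µg/ml. Its groups did not overlap either (log2 fold change 0.12, SE 0.026, limma adjusted p = 0.0052).

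The tetraspanin CD63 and SCARB2, the receptor that carries glucocerebrosidase to lysosomes, did not pass. CD63 averaged 114 ± 2.5 FPKM at 100 µg/ml, against 106 ± 5.3 at 0 µg/ml (SD, n = 3 each, limma adjusted p = 0.122), without overlap. SCARB2 averaged 15.1 ± 0.55 FPKM at 100 µg/ml, against 14.8 ± 0.44 at 0 µg/ml, with overlapping groups. Among 24 other tested lysosomal membrane proteins and transporters 5 rose and 1 fell, against 7.94% and 7.51% of all genes tested. The median log2 fold change was 0.058. The rises were CLN3 (0.32), TMEM192 (0.27), the chloride-proton exchanger CLCN7 (0.16), its partner OSTM1 (0.28) and the phospholipid transporter SPNS1 (0.15). LITAF, an adaptor on late endosomes, fell by 0.13 on the log2 scale (limma adjusted p = 0.037).

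Among 10 cathepsins and other proteases 3 rose and 1 fell at 100 µg/ml, and the median log2 fold change was 0.047. CTSL, a cysteine protease (chromosome 9, 87726119 to 87731469), had FPKM of 54.6, 53.6 and 56.4 at 100 µg/ml, against 37.8, 37.4 and 35.6 at 0 µg/ml. The groups were far apart, with a difference of 48.4% between the means (log2 fold change 0.56, SE 0.041, limma adjusted p = 6.7e-08). CTSL has 5 named pseudogenes, and how reads shared with them were counted is not stated. CTSD, the aspartic protease of lysosomes (chromosome 11, 1752755 to 1763927), had FPKM of 137.7, 135.4 and 133.6 at 100 µg/ml, against 116.6, 116.1 and 121.0 at 0 µg/ml. The groups did not overlap (log2 fold change 0.20, SE 0.035, limma adjusted p = 0.00079). An overlapping gene on the same strand shares 41.7% of the exon bases of CTSD.

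CTSB, another cysteine protease (chromosome 8), had FPKM of 19.5, 19.8 and 18.9 at 100 µg/ml, against 17.1, 16.1 and 17.8 at 0 µg/ml. All treated libraries were above the untreated ones (log2 fold change 0.19, SE 0.054, limma adjusted p = 0.024). The CTSB call was lost without replicate 1 (adjusted p = 0.0574) or 2 (0.110) at 0 µg/ml and without replicate 1 (0.0637) or 2 (0.0755) at 100 µg/ml. CTSC, the dipeptidyl peptidase that activates serine proteases of immune cells (chromosome 11, 88293592 to 88337736), had FPKM of 36.5, 37.1 and 36.2 at 100 µg/ml, against 39.1, 41.5 and 39.9 at 0 µg/ml. It was lower in every treated library, with a log2 fold change of -0.13 (SE 0.042, limma adjusted p = 0.043). This call was the least stable. It was lost in 15 of 27 other settings, among them leaving out any 1 library at 0, 50 or 100 µg/ml, replicate 2 or 3 at 1 µg/ml, or replicate 1 at 2.5 µg/ml, with an adjusted p up to 0.154.

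The other 6 proteases did not pass. TPP1, an aminopeptidase, averaged 32.5 ± 1.8 FPKM at 100 µg/ml, against 29.8 ± 1.3 at 0 µg/ml (SD, n = 3 each, limma adjusted p = 0.0973). LGMN and CTSA had log2 fold changes of 0.064 and 0.031, and CTSZ, CTSF and CTSK of -0.059, -0.073 and -0.16. CTSK had the widest error of the 50 genes (SE 0.15) at a mean of 1.27 FPKM at 100 µg/ml.

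Among the 15 glycan hydrolases and sulfatases GLA alone rose at 100 µg/ml. In limma 0 fell (2 were lower at an unadjusted p under 0.05, NAGLU and AGA), and the median log2 fold change was -0.034. GLA, the galactosidase that removes terminal alpha-galactose from globotriaosylceramide and is deficient in Fabry disease (chromosome X, 101397803 to 101407925), had FPKM of 36.5, 32.7 and 34.97 at 100 µg/ml, against 19.8, 21.0 and 21.4 at 0 µg/ml. The groups were separated by more than the range within either. The difference between the means was 67.3%, and the log2 fold change of 0.73 (SE 0.045, limma adjusted p = 7.3e-09) was the largest of the 50.

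The other 14 genes of this subclass had log2 fold changes between -0.19 and 0.12. FUCA1, a fucosidase, averaged 9.33 ± 0.32 FPKM at 100 µg/ml, against 8.55 ± 0.15 at 0 µg/ml (SD, n = 3 each), without overlap but with an adjusted p of 0.0884 in limma. ARSA, a sulfatase of sulfatide, averaged 2.79 ± 0.18 FPKM at 100 µg/ml, against 3.15 ± 0.088 at 0 µg/ml (limma adjusted p = 0.183). HEXA, the alpha subunit of hexosaminidase, averaged 19.7 ± 0.72 FPKM at 100 µg/ml, against 19.6 ± 1.2 at 0 µg/ml, a log2 fold change of 0.0085 with an SE of 0.044.

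Among the 6 lipid hydrolases and activators PSAP alone rose at 100 µg/ml, and 0 fell in limma, with 0 lower at an unadjusted p under 0.05. PSAP, whose product is cut into the 4 saposins that present lipids to hydrolases (chromosome 10, 71816298 to 71851251), had FPKM of 258.9, 260.2 and 257.8 at 100 µg/ml, against 236.6, 238.1 and 233.4 at 0 µg/ml. The groups did not overlap, and the spread within each was small (log2 fold change 0.13, SE 0.025, limma adjusted p = 0.0013). LIPA, the acid lipase that hydrolyses cholesteryl esters and triglycerides (chromosome 10, 89213572 to 89414679), had FPKM of 14.8, 15.1 and 14.8 at 100 µg/ml, against 15.3, 16.4 and 15.7 at 0 µg/ml. All treated libraries were below the untreated ones, but the log2 fold change of -0.082 (SE 0.043) did not pass in limma (adjusted p = 0.226). Acid ceramidase (ASAH1) had a log2 fold change of 0.14 (limma adjusted p = 0.103), and SMPD1, PPT1 and GM2A lay between -0.028 and 0.025.

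At the lower doses none of the lysosomal genes passed the test: in limma 0 of 50 were called at 1, 2.5 or 10 µg/ml. Over all genes tested 0% passed at 1 and 2.5 µg/ml and 0.0412% at 10 µg/ml (0.033% higher and 0.00825% lower). At an unadjusted p under 0.05, 2 of the 50 genes passed at 1 µg/ml (3.01% of all genes), 1 at 2.5 µg/ml (4.38%) and 3 at 10 µg/ml (9.77%). The 3 GLA libraries at 1 µg/ml, for example, held FPKM of 20.7, 21.5 and 21.4. Those treated with 2.5 µg/ml held 20.7, 21.6 and 20.1, and the next dose, 10 µg/ml, gave 21.0, 21.5 and 22.7. All 3 groups overlapped the untreated values.

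At 50 µg/ml 7 genes were higher and 1 was lower than at 0 µg/ml, against 3.78% and 3.69% of all genes tested (7.47% in either direction). The comparison uses the same 0 µg/ml libraries as that at 100 µg/ml. The rises were GLA, CTSL, CTSD, LAMP2, ATP6V0B, ATP6V1C1 and ATP6V1H. GLA had FPKM of 28.5, 28.1 and 30.2 at 50 µg/ml, all above the 0 µg/ml libraries (log2 fold change 0.47, SE 0.045, limma adjusted p = 5.1e-06). CTSL had FPKM of 47.5, 43.3 and 46.5 at 50 µg/ml, likewise above (0.30, SE 0.041, limma adjusted p = 0.00024). ATP6V0B averaged 60.5 ± 1.3 FPKM at 50 µg/ml, against 52.1 ± 0.66 at 0 µg/ml (SD, n = 3 each, limma adjusted p = 0.0049), and ATP6V1C1 23.9 ± 0.084 at 50 µg/ml, against 20.3 ± 0.86 at 0 µg/ml (limma adjusted p = 0.0046). These 4 calls held in all 27 other settings.

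**Figure D3:**
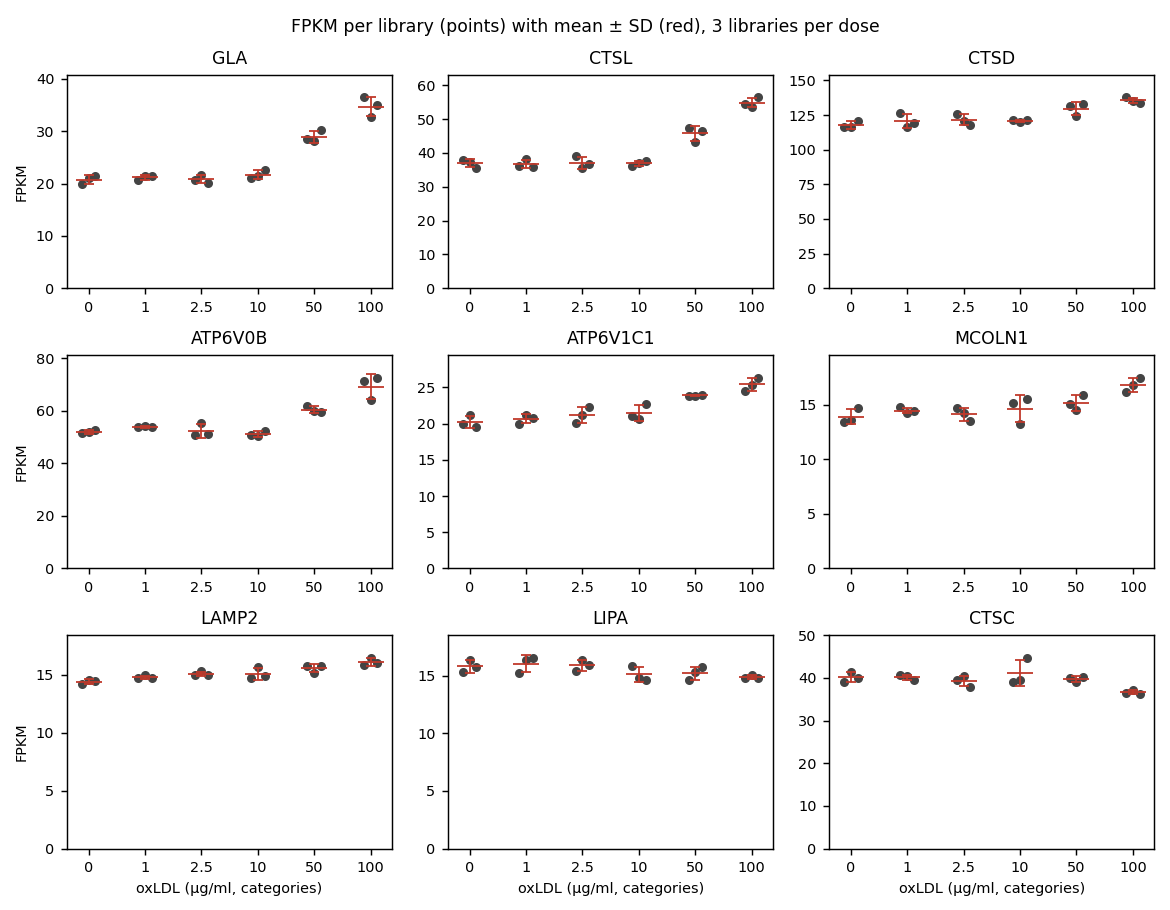
FPKM of 9 lysosomal genes in each library (dark points) by oxLDL dose in µg/ml, drawn as equally spaced categories, with the mean ± SD of 3 libraries per dose in red. GLA, CTSL and ATP6V0B are level to 10 µg/ml and higher at 50 and 100 µg/ml, while LIPA and CTSC are not higher at 100 µg/ml.

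IDUA, the iduronidase that degrades dermatan and heparan sulfate (chromosome 4, 986997 to 1004564), was the gene that fell at 50 µg/ml. Its FPKM was 0.558, 0.684 and 0.734 at 50 µg/ml, against 1.01, 1.02 and 0.895 at 0 µg/ml. The groups did not overlap at 50 µg/ml (log2 fold change -0.35, SE 0.094, limma adjusted p = 0.032). At 100 µg/ml its FPKM of 0.861, 0.916 and 0.734 overlapped the untreated values (limma adjusted p = 0.357). IDUA rests on 63 to 211 reads per library and overlaps SLC26A1 on the opposite strand over 13.3% of its exon bases, so its reads cannot be assigned with certainty. The call was lost without any 1 of the 0 µg/ml libraries and without replicate 1 or 2 at 50 µg/ml, with an adjusted p up to 0.116. Without replicate 2 at 2.5 µg/ml the count of falls was 2.

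Calls at 50 µg/ml near the threshold depended on single libraries. Leaving out 1 library gave between 4 and 11 rises. The count was 4 without replicate 1 or 2 at 0 µg/ml or replicate 1 at 50 µg/ml, and 11 without replicate 3 at 2.5 µg/ml or replicate 3 at 10 µg/ml. LAMP2 (limma adjusted p = 0.049) was not called in 18 of the 27 other settings, which include leaving out any 1 library at 0, 1, 50 or 100 µg/ml and either of replicates 1 and 2 at 2.5 µg/ml, with an adjusted p up to 0.161. CTSD lost it in 7 settings, among them without replicate 1 or 2 at 0 µg/ml and without replicate 1 or 3 at 50 µg/ml (adjusted p up to 0.111). ATP6V1H lost it without any 1 library at 0 µg/ml and without replicate 1 or 2 at 50 µg/ml (adjusted p up to 0.0995).

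Between 100 and 50 µg/ml 2 genes rose further, CTSL and GLA, against 0.223% of all genes tested (0.28% in either direction). The log2 fold change was 0.26 for GLA (SE 0.045, limma adjusted p = 0.011) and 0.26 for CTSL (SE 0.041, limma adjusted p = 0.0051). All 3 libraries at 100 µg/ml lay above all 3 at 50 µg/ml for 14 of the 50 genes and below for 1, CTSC, against 6.74% and 8.33% of all genes tested. In limma 0 genes fell, with CTSC the 1 lower at an unadjusted p under 0.05 (8.33% of all genes in either direction). Fitted with these doses alone, GLA and CTSL no longer passed (adjusted p = 0.136 and 0.0743). GLA also lost the call without replicate 1 or 2 at 50 µg/ml and without replicate 1 or 3 at 100 µg/ml, with an adjusted p up to 0.092 among these, which left 1 rise. There were 3 rises without replicate 2 at 2.5 µg/ml or replicate 2 at 100 µg/ml.

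A straight-line fit on log2(dose + 1) over all 18 libraries called 20 genes rising and 3 falling, against 13% and 12.6% of all genes tested (25.6% in either direction). The rises added ATP6V1A, ATP6V1B2, TPP1 and IDS to the 16 genes called at 100 µg/ml, and the falls were ARSA (limma adjusted p = 0.011), AGA (0.045) and LIPA (0.035). Leaving out 1 library gave 17 to 20 rises and 1 to 4 falls. The falls were 1 without replicate 2 at 1 µg/ml, replicate 1 at 50 µg/ml or replicate 3 at 100 µg/ml. ARSA was called in all 26 alternatives of the slope, while AGA was lost in 12 (adjusted p up to 0.143, without replicate 3 at 100 µg/ml) and LIPA in 7 (up to 0.0719, without replicate 2 at 0 µg/ml). Of the 4 added rises, ATP6V1A and TPP1 were called in all 26, ATP6V1B2 was lost in 12 and IDS in 15. A test of any difference among the doses called 18 of the 50 genes, against 15.4% of all genes, and 12 without any 1 of the 100 µg/ml libraries.

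**Figure D4:**
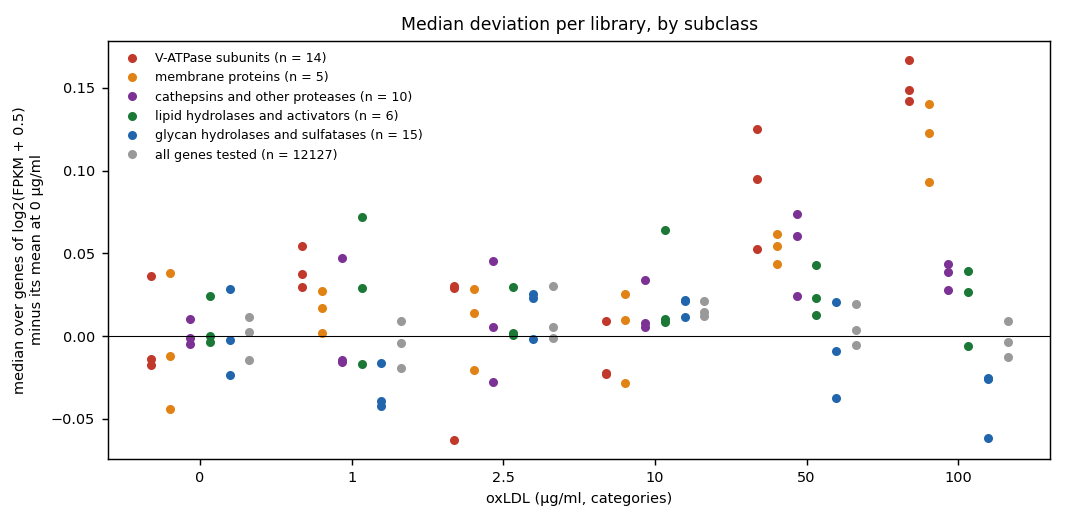
Median over the genes of each subclass, per library, of log2(FPKM + 0.5) minus its mean at 0 µg/ml, by oxLDL dose in µg/ml drawn as categories. The 3 libraries at 100 µg/ml are at 0.142 to 0.167 for V-ATPase subunits and at -0.062 to -0.025 for glycan hydrolases and sulfatases.

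Subclass medians were also taken library by library. The median deviation from the untreated mean was 0.167, 0.149 and 0.142 for V-ATPase subunits in replicates 1, 2 and 3 at 100 µg/ml, against -0.017, -0.014 and 0.036 at 0 µg/ml. For membrane proteins it was 0.140, 0.093 and 0.123 at 100 µg/ml, against -0.044, -0.012 and 0.038 at 0 µg/ml. For glycan hydrolases and sulfatases it was -0.062, -0.025 and -0.026 at 100 µg/ml, against 0.028, -0.023 and -0.0024 at 0 µg/ml. The first 2 subclasses were higher in every treated library, and the glycan hydrolases and sulfatases lower in every one, although replicate 2 differed little between the doses. The other subclasses lay between these at 100 µg/ml and overlapped each other, with 0.028, 0.044 and 0.039 for proteases and 0.027, 0.039 and -0.0059 for lipid hydrolases and activators. Over all genes tested the same measure was between -0.013 and 0.009 at 100 µg/ml. The difference between subclasses was not tested.

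Genes that deliver hydrolases to lysosomes, and those that control TFEB, were called in either direction at 100 µg/ml about as often as all genes tested (15.5%). Their calls were mostly rises, while over all genes tested 7.94% were higher and 7.51% lower. Of 21 tested sorting genes 3 were higher and none lower, with a median log2 fold change of 0.0029. They were both mannose 6-phosphate receptors, IGF2R (0.41, limma adjusted p = 0.00086) and M6PR (0.22, limma adjusted p = 0.0054), and RAB7A (0.24, limma adjusted p = 9.9e-06), the small GTPase of late endosomes. RAB7A averaged 174.8 ± 2.0 FPKM at 100 µg/ml, against 147.9 ± 2.7 at 0 µg/ml, and IGF2R 7.92 ± 0.47 at 100 µg/ml, against 5.84 ± 0.40 at 0 µg/ml (SD, n = 3 each). Of 24 tested genes of the TFEB factors and their mTORC1 control, 4 rose and 1 fell, with a median of 0.0096. FNIP1 (0.38) and FLCN (0.31), the partners that act on the Rag GTPases, rose, as did RRAGC (0.13) and RHEB (0.16), while TSC2, an inhibitor of mTORC1, fell by 0.19 on the log2 scale. TFEB averaged 2.55 ± 0.37 FPKM at 100 µg/ml, against 2.75 ± 0.035 at 0 µg/ml (limma adjusted p = 0.602), and MITF 3.15 ± 0.11 at 100 µg/ml, against 3.17 ± 0.081 at 0 µg/ml (limma adjusted p = 0.976). TFE3 was not analysed here.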

How the data were processed

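Poly-A RNA of 18 HMC3 libraries was sequenced as paired ends, per the labels' protocols, from libraries made with a NEBNext Ultra kit. The deposited table gives FPKM per gene symbol. Tools in the submitters' processing notes include featureCounts and HISAT2 2.0.5, with build hg38, and their roles are not given. The annotation release, the strand setting and the treatment of multi-mapping reads are not given in the sources used here. The unit was checked: whole reads were recovered within 0.05 reads for 13992 genes (100.0% of those listed), and the implied lengths equalled those annotated for 96.8% of 340 single-exon genes. These reads gave the depths and were not used in tests. A kit of this kind does not mark strand, so overlapping genes on opposite strands cannot be told apart.

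A gene was tested (12127 in all) where 3 or more libraries had 0.5 FPKM or more, as log2(FPKM + 0.5), which understates changes of low genes. One limma model (version 3.58.1, R 4.3.3) held all 6 doses, with the eBayes variance trend and 12 residual degrees of freedom. Tests were two-sided, with Benjamini-Hochberg adjustment over all genes tested, and the fit was tested on simulated data. FPKM is given as mean ± SD. Gene coordinates and promoters are from RefSeq (GRCh38.p14), and overlaps and pseudogenes from GENCODE. Samples were grouped by the labelled dose. Alternatives numbered 27: 18 left out 1 library each, and 9 changed the pseudocount, filter, scaling, variance trend, replicate block or doses fitted.

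The members and the gene lists were chosen with earlier results of these data known. Values per library are given for up to 4 called rises and 2 called falls per subclass with the smallest adjusted p, for LAMP1, LAMP2, CTSB, CTSD, MCOLN1, ATP6V0C and ATP6AP1, and for genes called only at 50 µg/ml. In the other lists up to 3 called genes per direction were named by the same measure, with TFEB, TFE3 and MITF. LIPA and all other genes with values were named after these were seen. The list of other lysosomal hydrolases and maturation factors is not reported here.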

Additional observations from a re-analysis of the deposited data

How the results depend on the processing

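Of the 16 rises at 100 µg/ml, 13 were called in all 27 alternatives, and ATP6V0C, ATP6V1D and CTSB in 24, 26 and 23. Their number was 16 in 8 of the 9 alternatives that kept every library, 17 with the replicate block, and 14 to 17 when 1 library was left out. The 1 fall, CTSC, became 0 falls with median-of-ratios scaling, without the variance trend and with the replicate block, and 0 to 1 without 1 library. None of the log2 fold changes of these 17 genes changed sign in any alternative. At 50 µg/ml, leaving out 1 library gave 4 to 11 rises and 0 to 2 falls. Between 100 and 50 µg/ml the rises were 0 with only these doses in the fit and 1 to 3 without 1 library, with 0 falls. The slope gave 17 to 20 rises and 1 to 4 falls, and the test over all doses 12 to 19 genes. At 10, 2.5 and 1 µg/ml all alternatives gave 0. The slope and the test over all doses had no fit with only a pair of doses. A planned limma-voom fit on the recovered reads is not reported, because the deposited unit is FPKM.

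The replicate numbers did not pair the libraries uniformly. Over 45 pairs of doses and numbers, correlations of deviations from the dose means ran from -0.333 to 0.245. Their median was 0.0105, and 10 were over 0.1. For replicates 1, 2 and 3 they were 0.158, 0.0658 and 0.156 between 100 and 50 µg/ml. Between 100 and 0 µg/ml they were -0.0848, -0.0924 and -0.213. With the number as a block, 17 rises and 0 falls were called at 100 µg/ml and 8 rises and 1 fall at 50 µg/ml. Genes near 1 FPKM, such as IDUA and CTSK, had the largest errors. Library totals were used as deposited, and both rescalings moved every library by less than 3%.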
